A study of Mus musculus with 7 samples.

Results

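Dendritic cells take up antigen in the skin and carry it to lymph nodes, where they prime T cells, and Langerhans cells are their relatives that live in the epidermis. The 10 genes described here mark these cells: Cd207 and Epcam (Langerhans cells), Itgax, Flt3 and Zbtb46 (dendritic cells in general), Clec9a and Batf3 (the cross-presenting type 1 subset), Cd209a (type 2 and monocyte-derived dendritic cells), Siglech (plasmacytoid dendritic cells) and Fscn1 (mature, migrating dendritic cells). They were chosen by gene symbol, and all 10 had 1 probe set each among the 23185 named genes of the array table.

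The samples were 4 of lesional skin from ox40l-/- mice and 3 from ox40l+/+ mice. Both groups were C57BL/6 males aged 9 weeks that had been injected with bleomycin for 3 weeks. Bleomycin is a DNA-damaging drug whose repeated injection scars mouse skin. OX40L, the product of Tnfsf4, is a costimulatory ligand that activated dendritic cells present to OX40 on T cells, and the series title places the study in inflammation-driven fibrosis. The labels do not say how the ox40l allele was made, in which cells it was lost, or whether each sample came from a separate animal. Without untreated skin, what bleomycin does to these genes cannot be read from the comparison.

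Values are log2 expression levels after robust multi-array averaging (RMA), and differences are ox40l-/- minus ox40l+/+ on that log2 scale. Of the 7 arrays, ox40l+/+ replicates 1 and 3 stood apart. Pairs of arrays with either of them correlated across probe sets at Pearson's r of 0.761 to 0.914, against 0.956 to 0.968 for the other 10 pairs. The SD over all probe sets was 1.72 on ox40l+/+ replicate 1 and 1.22 on replicate 3, and 1.38 to 1.48 on the other 5 arrays. Where leaving out 1 of these arrays changes the direction of a difference in a dendritic, upkeep or growth factor gene, the value without it is also given. The skin label was checked on Krt14, a keratin of basal keratinocytes, which lay between 10.24 and 10.67 in ox40l-/- skin and between 9.54 and 10.94 in ox40l+/+ skin, far above the array medians of 3.45 to 3.73. The targeted gene, Tnfsf4, was at 2.95 ± 0.27 (SD, n = 4) in ox40l-/- and 2.93 ± 0.63 (SD, n = 3) in ox40l+/+ skin. Where its probes lie relative to the deleted part is not known here, so it checks nothing about the labels.

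None of the 10 dendritic and Langerhans cell genes differed between genotypes by more than the spread between arrays. Of the 10, 6 had a higher mean in ox40l-/- skin, against 51.7% of all genes, and 4 a lower mean, against 48.3%, and the median difference was 0.045, beside 0.0096 over all named genes. In limma 0 of 10 passed at an adjusted p under 0.05 (adjusted p = 0.9995 for each), against 0.00431% of all genes, and 0 of 10 had an unadjusted p under 0.05, against 1.88% of all genes. In all 10 genes the genotypes overlapped, whereas 1.91% of all genes did not overlap. The differences ran from -0.49 for Epcam to 0.21 for Cd207, and their 95% confidence intervals are wide. In whole skin, fewer cells of a type and less RNA per cell cannot be told apart.

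**Figure D1:**
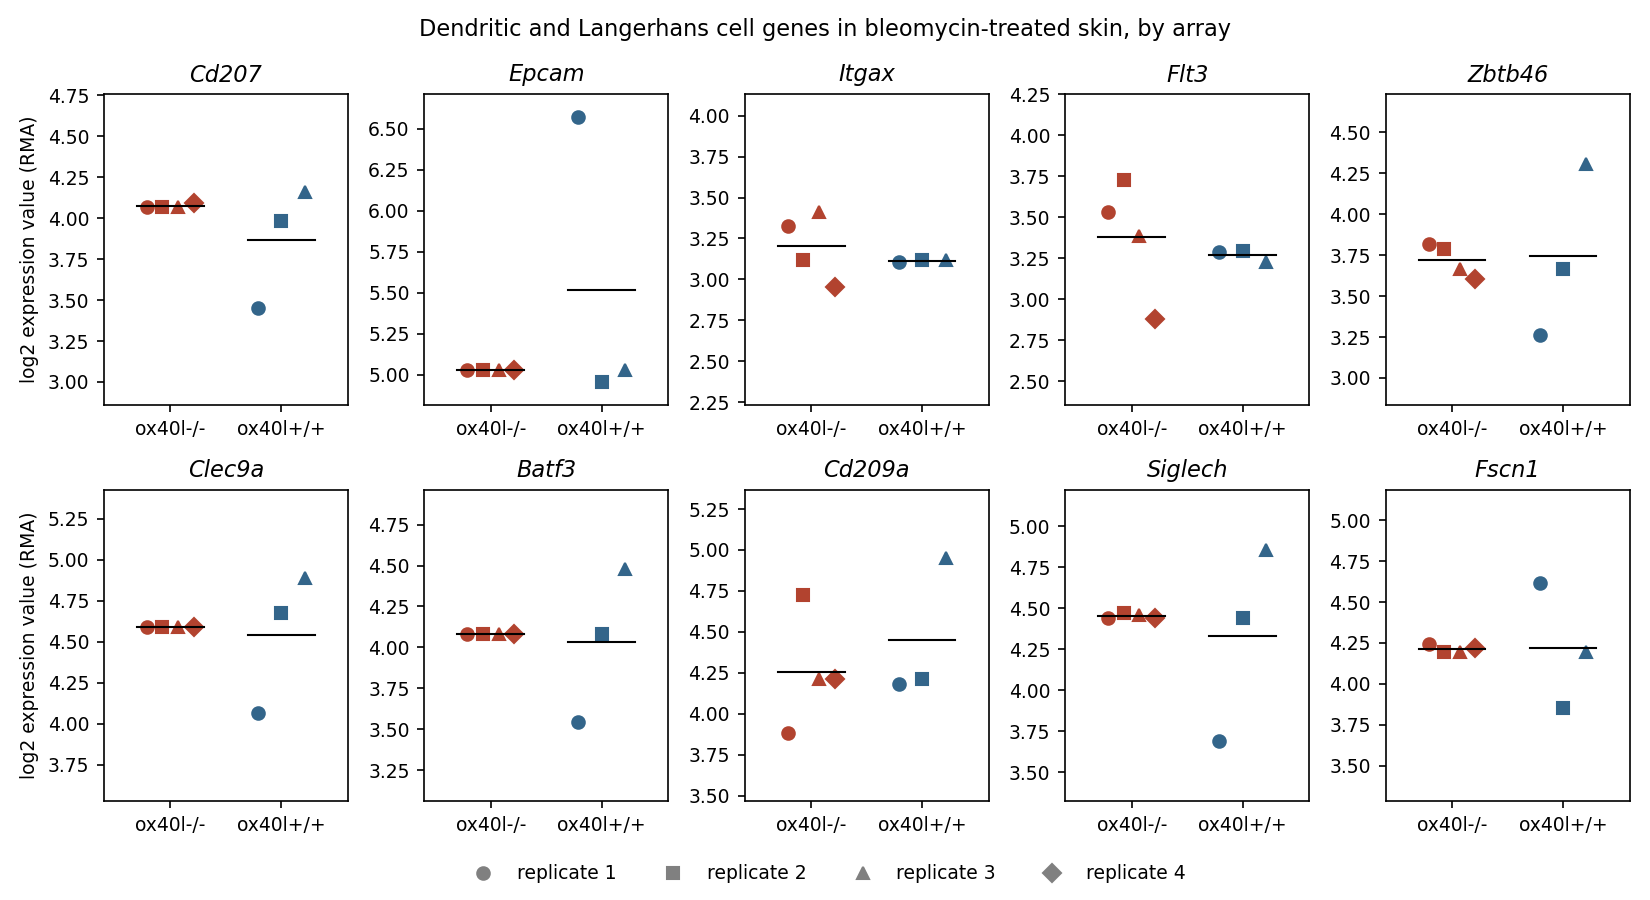
Each panel shows the log2 expression value (RMA) of 1 gene on the 4 ox40l-/- arrays (red, left) and the 3 ox40l+/+ arrays (blue, right), with the mean of each group as a black line; marker shapes give the replicate, and every panel spans the same height. The ox40l-/- points of Cd207, Epcam, Clec9a, Batf3, Siglech and Fscn1 lie almost on a line, while the ox40l+/+ points spread to either side, and the groups overlap in all 10 panels.

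Cd207 encodes langerin, the C-type lectin that forms Birbeck granules in Langerhans cells. Its log2 level was 4.07, 4.07, 4.07 and 4.09 on the 4 ox40l-/- arrays and 3.45, 3.98 and 4.16 on the 3 ox40l+/+ arrays. All 4 ox40l-/- arrays lay within the ox40l+/+ range, above replicates 1 and 2 and below replicate 3. The means were 4.07 ± 0.013 (SD, n = 4) in ox40l-/- and 3.87 ± 0.37 (SD, n = 3) in ox40l+/+ skin, a difference of 0.21 (SE 0.19, 95% confidence interval -0.23 to 0.64). That interval covers levels from 0.853 to 1.56 times the ox40l+/+ level. Without ox40l+/+ replicate 1 the difference was 0.000125, and without replicate 3 it was 0.35, so its size rested on these arrays. With each array centred on its median, Cd207 was higher on every ox40l-/- array than on any ox40l+/+ array, by 0.19 on average (limma adjusted p = 0.9994), as 4.12% of all genes then did not overlap either.

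Epcam encodes an adhesion molecule of epithelial cells that Langerhans cells also carry and that the hair follicle epithelium expresses. It was at exactly 5.03 on all 4 ox40l-/- arrays, and at 6.57, 4.95 and 5.03 on ox40l+/+ replicates 1, 2 and 3. Only ox40l+/+ replicate 1 was high, and the other 6 arrays lay between 4.95 and 5.03. The difference was -0.49 (SE 0.38, 95% confidence interval -1.39 to 0.41), and without ox40l+/+ replicate 1 it was 0.037. The same array had the highest mean deviation for 9 hair follicle markers (2.89, against -1.20 to -0.12 in ox40l-/- and 0.16 and -0.60 on the other ox40l+/+ arrays) and for 7 basal keratinocyte markers (1.13, against -0.16 to 0.052 in ox40l-/- and -0.075 and -0.73 on the other ox40l+/+ arrays). All 9 follicle markers had a lower mean in ox40l-/- skin, with 0 past the adjusted threshold. Their median difference was -1.24, and -0.32 without ox40l+/+ replicate 1. The part of these epithelial genes in the Epcam values was not tested. Cd207 went the other way on that array, where it was at its lowest.

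Itgax, Flt3 and Zbtb46 mark dendritic cells more broadly. Itgax encodes the integrin CD11c, which some macrophages also carry. It was at 3.33, 3.12, 3.41 and 2.95 in ox40l-/- skin, against 3.11, 3.12 and 3.12 in ox40l+/+ skin. Here the ox40l-/- arrays were the more spread and enclosed the ox40l+/+ values, and Itgax lay below the array median on all 7 arrays, so its level is dim. Its difference was 0.087 (SE 0.15, 95% confidence interval -0.27 to 0.44).

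Flt3 encodes the receptor for FLT3 ligand, the growth factor on which dendritic cell precursors depend. It was at 3.53, 3.73, 3.39 and 2.88 in ox40l-/- skin, against 3.29, 3.29 and 3.23 in ox40l+/+ skin. Of the ox40l-/- arrays 3 lay above and 1 below every ox40l+/+ array, and Flt3 was above the array median on 1 array, ox40l-/- replicate 2. The difference of 0.11 (SE 0.21) was 0.28 without ox40l-/- replicate 4 and -0.0039 without ox40l-/- replicate 2.

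Zbtb46 encodes a transcription factor that separates classical dendritic cells from macrophages and is also found in endothelium. Its values were 3.82, 3.79, 3.66 and 3.61 in ox40l-/- skin and 3.26, 3.66 and 4.31 in ox40l+/+ skin. The ox40l-/- arrays lay between the lowest and the highest ox40l+/+ array. The difference was -0.025 (SE 0.24, 95% confidence interval -0.60 to 0.55); without ox40l+/+ replicate 1 it was -0.27 and without replicate 3 it was 0.26, and it was 0.013 without ox40l-/- replicate 4.

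Clec9a and Batf3 belong to the type 1 subset. Clec9a encodes a lectin that binds actin exposed on dead cells and aids cross-presentation. It was at exactly 4.59 on all 4 ox40l-/- arrays, against 4.06, 4.67 and 4.89 on the ox40l+/+ arrays. Batf3 encodes the transcription factor that this subset needs to develop. It was at exactly 4.08 on all 4 ox40l-/- arrays, against 3.55, 4.08 and 4.48 on the ox40l+/+ arrays. In both genes the ox40l-/- value fell between those of ox40l+/+ replicates 1 and 3. The differences were 0.045 (SE 0.21, 95% confidence interval -0.44 to 0.53) for Clec9a and 0.045 (SE 0.22, 95% confidence interval -0.47 to 0.56) for Batf3. Without ox40l+/+ replicate 1 both turned negative, to -0.19 and -0.20.

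Cd209a encodes a DC-SIGN family lectin of type 2 and monocyte-derived dendritic cells. Its values were 3.88, 4.73, 4.21 and 4.21 in ox40l-/- skin and 4.18, 4.21 and 4.95 in ox40l+/+ skin. Each genotype had 1 high array, ox40l-/- replicate 2 and ox40l+/+ replicate 3. The difference was -0.19 (SE 0.27, 95% confidence interval -0.82 to 0.44), and it was 0.062 without ox40l+/+ replicate 3 and -0.35 without ox40l-/- replicate 2.

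Siglech encodes a sialic acid-binding lectin of plasmacytoid dendritic cells, the producers of type I interferon, and is also found on some macrophages. It was at 4.44, 4.47, 4.46 and 4.44 in ox40l-/- skin, against 3.69, 4.44 and 4.85 in ox40l+/+ skin. The ox40l-/- arrays were within 0.032 of each other, and the ox40l+/+ arrays spanned 1.16. The difference was 0.12 (SE 0.26, 95% confidence interval -0.49 to 0.74), and -0.19 without ox40l+/+ replicate 1.

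Fscn1 encodes fascin, the actin-bundling protein of mature dendritic cells, which other motile cells also make. Its values were 4.24, 4.19, 4.19 and 4.22 in ox40l-/- skin and 4.62, 3.85 and 4.19 in ox40l+/+ skin. The difference was -0.0087 (SE 0.19, 95% confidence interval -0.46 to 0.44), and without ox40l+/+ replicate 1 it was 0.19. Only ox40l+/+ replicate 2 lay clearly below the ox40l-/- arrays, and with that array as the lone ox40l+/+ sample the difference was 0.36 (limma adjusted p = 0.395). The lone sample is assumed there to vary like the ox40l-/- arrays, whose SD of 0.023 includes tied values. Fscn1 was then the 1 of the 10 genes with an unadjusted p under 0.05, beside 8.73% of all genes. With array weights it had an adjusted p of 0.0166 in limma, where 17.4% of all genes passed the adjusted and 31.8% the unadjusted threshold. That estimate gave ox40l+/+ replicate 2 a weight of 75.4, against 0.106 and 0.109 for replicates 1 and 3, and it stopped before it converged.

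**Figure D2:**
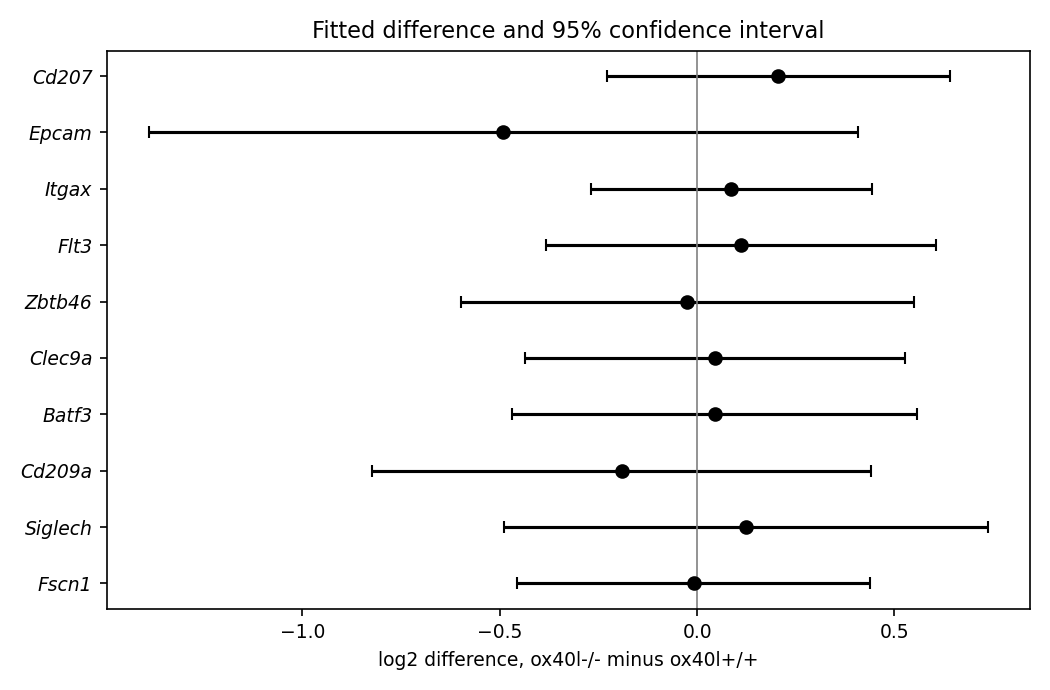
Points give the fitted log2 difference, ox40l-/- minus ox40l+/+, of each gene (rows) and bars its 95% confidence interval in limma over 4 ox40l-/- and 3 ox40l+/+ arrays. All 10 intervals include 0, and the widest is that of Epcam, from -1.39 to 0.41.

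A pattern across arrays that does not follow genotype was seen in 5 of the 10 genes. In Cd207, Zbtb46, Clec9a, Batf3 and Siglech, ox40l+/+ replicate 1 was below all 4 ox40l-/- arrays and ox40l+/+ replicate 3 above all 4. Epcam and Fscn1 were instead highest on ox40l+/+ replicate 1. The opposite order was seen in 0 of 10. Over all named genes the first order was found in 21.4% and the opposite in 12.4%. Among the 11700 genes whose mean level lay within the range of the 10 genes, the shares were 18.7% and 12.8%. Siglech was 0.76 lower on ox40l+/+ replicate 1 than the ox40l-/- mean and 0.40 higher on replicate 3, and Cd207 was 0.62 lower and 0.088 higher. On ox40l+/+ replicate 2, whose values resemble the ox40l-/- arrays most, 9 of the 10 genes lay at most 0.088 from the ox40l-/- mean and Fscn1 lay 0.36 below it.

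**Figure D3:**
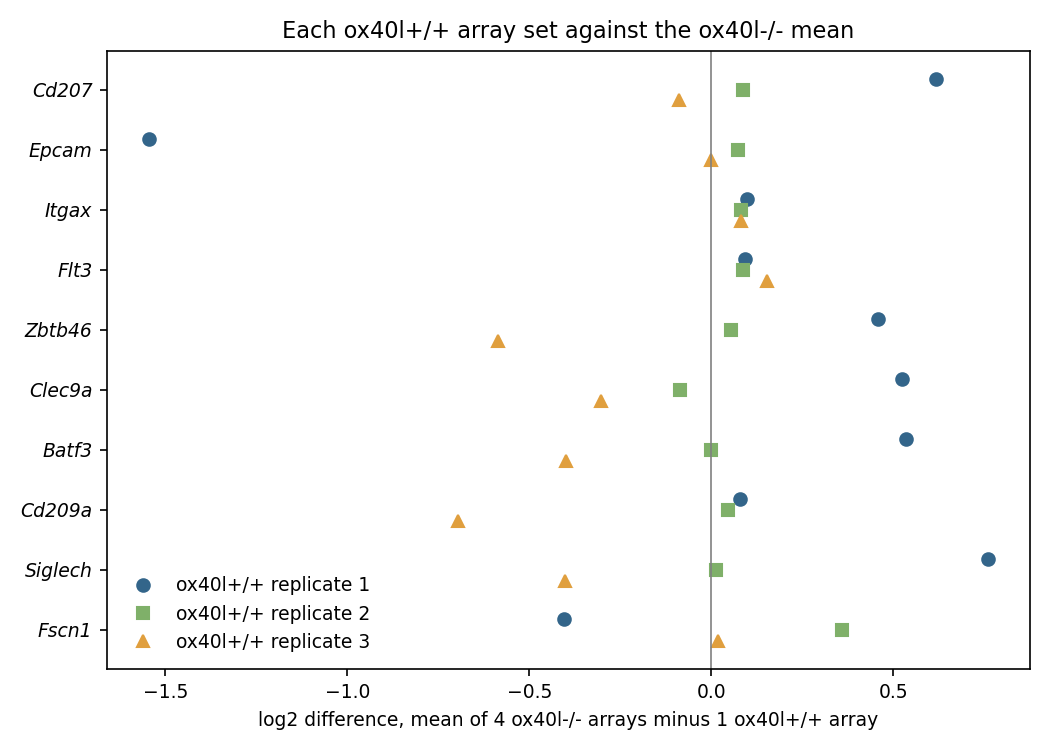
For each gene (rows) the horizontal axis gives the log2 difference between the mean of the 4 ox40l-/- arrays and each single ox40l+/+ array, with 1 marker per ox40l+/+ replicate. Replicate 2 lies near 0 except for Fscn1 (0.36), and replicates 1 and 3 lie on opposite sides of 0 in Cd207, Zbtb46, Clec9a, Batf3, Cd209a, Siglech and Fscn1.

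The ox40l+/+ range was wider than the ox40l-/- range in 7 of the 10 genes, beside 72.2% of all genes. Itgax, Flt3 and Cd209a were the exceptions. Exactly equal values were common. In 9 of the 10 genes, Flt3 being the exception, at least 2 arrays had the same value to 6 decimals, beside 54.3% of all genes. Epcam, Clec9a and Batf3 had the same value on all 4 ox40l-/- arrays, beside 1.57% of all genes. Epcam was also equal on ox40l+/+ replicate 3 and Batf3 on ox40l+/+ replicate 2. RMA summarizes probes by median polish, which can return the same value for several arrays, so an SD near 0 in these genes is not a measure of how alike the mice were.

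Promoters of Cd207, Batf3 and Itgax are printed below as examples. Each is the 250 bases before the RefSeq start site (assembly GRCm38.p6), read 5′ to 3′ on the gene's strand. Capitals mark matches, on either strand, to GAGGAA, a core bound by the myeloid factor PU.1, or to TGANTCA, the AP-1 site that BATF3 can bind with JUN partners. Cd207 lies at chr6:83677858-83678107 on the minus strand, Batf3 at chr1:191098164-191098413 on the plus strand and Itgax at chr7:128129300-128129549 on the plus strand.
Cd207: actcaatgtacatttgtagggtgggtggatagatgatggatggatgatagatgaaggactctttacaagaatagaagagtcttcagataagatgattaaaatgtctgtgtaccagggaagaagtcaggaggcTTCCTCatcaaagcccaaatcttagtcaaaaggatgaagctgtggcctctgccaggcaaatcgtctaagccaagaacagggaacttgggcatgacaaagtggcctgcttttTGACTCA
Batf3: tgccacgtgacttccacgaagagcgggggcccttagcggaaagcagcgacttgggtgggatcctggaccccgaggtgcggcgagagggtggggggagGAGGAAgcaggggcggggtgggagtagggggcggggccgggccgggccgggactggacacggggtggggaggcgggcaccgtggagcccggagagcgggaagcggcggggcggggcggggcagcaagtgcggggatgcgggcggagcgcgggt
Itgax: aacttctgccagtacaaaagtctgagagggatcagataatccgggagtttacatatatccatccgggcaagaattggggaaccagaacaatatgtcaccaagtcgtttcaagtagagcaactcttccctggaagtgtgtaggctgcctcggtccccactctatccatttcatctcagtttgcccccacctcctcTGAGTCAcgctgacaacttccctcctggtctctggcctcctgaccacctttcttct

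GAGGAA was found in 2 of the 10 promoters (Cd207 and Batf3), beside 23.3% of 32851 RefSeq promoter windows of the same length. TGANTCA was found in 3 of 10 (Cd207, Itgax and Zbtb46), beside 6.75% of all windows. The joint ETS and IRF element was found in 0 of 10, beside 2.3% of all windows. In Cd207 the matches begin 118 and 7 bases before the start, in Batf3 153 and in Itgax 56, and no matches overlapped. These are matches of letters only. Zbtb46, Clec9a and Siglech, which shared the array pattern of Cd207 and Batf3, had no GAGGAA, and Clec9a and Siglech had no match at all. A link between matches and that pattern was not tested.

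Genes outside the 10 with the pattern most like Cd207 over the 7 arrays were 1700020N01Rik, Ubl4b, 4930519H02Rik, Mgat4f and Cuzd1, with Pearson's r of 0.991 to 0.993 and Spearman's rho of 0.889 to 0.941. The relation rested on ox40l+/+ replicates 1 and 3, the arrays farthest from the Cd207 median. Without them r was 0.733, 0.561, 0.539, 0.505 and 0.962. The last of these, for Cuzd1, rests on ox40l+/+ replicate 2 alone, because the 4 ox40l-/- arrays had the same Cuzd1 value. In all, 383 genes reached an r of 0.95 over 7 arrays, and 16 of them also did without these 2 arrays. A gene with 1 value on the 4 ox40l-/- arrays, such as Cuzd1, can reach only 0.962 or -0.962 over the remaining 5 arrays. How many of the 16 are such genes was not counted, so they are not read as keeping the likeness. The 5 genes named first lay below the array median on all 7 arrays, so their levels are dim. The array medians, too, were lowest on ox40l+/+ replicate 1 (3.45) and highest on replicate 3 (3.73). The part of this in the likeness was not tested. Within the 10 genes, r with Cd207 over 7 arrays was 0.951 for Siglech, 0.927 for Clec9a and 0.907 for Batf3, and -0.968 for Epcam. Without the 2 arrays it was 0.234 for Siglech, -0.962 for Clec9a and 0.962 for Epcam, while Batf3 had 1 value on the remaining 5 arrays and so no r. Clec9a and Epcam each had 1 value on the 4 ox40l-/- arrays. Their r over the 5 arrays therefore depends only on the direction in which ox40l+/+ replicate 2 differed.

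Further genes of the same cell types gave 0 calls at the adjusted threshold in limma. Some were dim, below the array median on all 7 arrays. These were 3 of 10 type 1, 4 of 10 type 2, 4 of 10 plasmacytoid and 2 of 14 maturation and migration genes. Of 10 further genes of the type 1 subset, 7 were higher and 3 lower in ox40l-/- skin, with a median difference of 0.021 and 0 past the adjusted threshold in limma. Snx22, a sorting nexin, differed by 0.54 (SE 0.22, limma adjusted p = 0.9995), and by 0.33 without ox40l+/+ replicate 1. It was at 3.56 to 4.01 in ox40l-/- and 2.79 to 3.54 in ox40l+/+ skin. Snx22 was the 1 gene of this list whose groups did not overlap, beside 1.91% of all genes. Itgae, the integrin CD103 of skin type 1 dendritic cells and of resident T cells, differed by 0.27 (SE 0.18). Cadm1, an adhesion molecule, differed by -0.41 (SE 0.29) and Rab7b, a late endosomal GTPase, by -0.24 (SE 0.29), which was 0.14 without ox40l+/+ replicate 1. The list median was 0.14 without ox40l+/+ replicate 1 and -0.083 without replicate 3.

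Of 10 genes of the type 2 subset, 8 were lower and 2 higher in ox40l-/- skin, with a median of -0.20 and 0 past the adjusted threshold. Itgam, the integrin CD11b, which macrophages and neutrophils also carry, was at 4.37 to 4.92 in ox40l-/- and 4.80 to 5.50 in ox40l+/+ skin, a difference of -0.55 (SE 0.22, limma adjusted p = 0.9995). Klf4, a transcription factor, differed by -0.68 (SE 0.43), Notch2, a receptor that guides dendritic cell maturation, by -0.41 (SE 0.29) and Tnfaip3, an inhibitor of NF-kB, by -0.35 (SE 0.21). Klf4 was at 6.08 and Notch2 at 5.50 on ox40l+/+ replicate 1, against 4.16 to 4.25 and 4.25 to 4.34 in ox40l-/- skin. Keratinocytes also express both genes, and the part of the high epithelial markers on that array was not tested. The list median was -0.088 without that array.

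Of 10 measured plasmacytoid genes, 7 were higher and 3 lower in ox40l-/- skin, with a median of 0.060 and 0 past the adjusted threshold. Ccr9, a homing receptor, differed by 0.26 (SE 0.15), Pacsin1, a membrane-shaping protein, by 0.31 (SE 0.21), Spib, a transcription factor, by 0.21 (SE 0.23) and Irf7, the interferon regulatory factor, by -0.32 (SE 0.23). Ccr9, Pacsin1 and Spib lay below the array median on every array, so their levels are dim. With single arrays left out, the median ran from -0.034 without ox40l-/- replicate 4 to 0.15 without ox40l+/+ replicate 1. Of 14 measured maturation and migration genes, 8 were higher and 6 lower, with a median of 0.066 and 0 past the adjusted threshold. Ccl17, a chemokine of mature dendritic cells that draws T cells, was at 3.10 to 3.48 in ox40l-/- and 3.48 to 3.80 in ox40l+/+ skin, a difference of -0.33 (SE 0.16), and the nearest arrays of the 2 genotypes were both at 3.48. Socs2, a cytokine signalling inhibitor, differed by 0.43 (SE 0.24), Cd40, the receptor for T cell help, by -0.27 (SE 0.29) and Relb, an NF-kB subunit, by -0.16 (SE 0.18). Without ox40l+/+ replicate 3, Cd40 differed by 0.078 and Relb by 0.017.

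Genes linked to the upkeep and growth of these cells gave 0 calls as well. Of 13 genes linked to Langerhans cell upkeep, 5 were higher and 8 lower in ox40l-/- skin, with a median of -0.042 and 0 past the adjusted threshold. Tgfb1, whose product retains Langerhans cells in the epidermis, differed by -0.27 (SE 0.16), Spi1, which encodes PU.1, by 0.26 (SE 0.18), Bmp7, a growth factor, by -0.51 (SE 0.42) and Axl, a receptor tyrosine kinase, by -0.27 (SE 0.26). Bmp7 was at 5.79 on ox40l+/+ replicate 1 and elsewhere between 3.99 and 4.37. With replicate 1 left out, Bmp7 differed by 0.065 and Axl by 0.054. The median of this list was 0.087 without ox40l+/+ replicate 1 and -0.21 without replicate 3. Of 11 genes of FLT3 and GM-CSF signalling and related growth factors, 6 were higher and 5 lower, with a median of 0.0066 and 0 past the adjusted threshold. Kitl, which encodes stem cell factor, differed by -0.85 (SE 0.40), its receptor gene Kit by -0.50 (SE 0.29), Stat5a by 0.32 (SE 0.30) and Csf2ra, a GM-CSF receptor chain, by 0.13 (SE 0.14). Without ox40l+/+ replicate 1 the differences were -0.42 for Kitl, -0.18 for Kit, 0.048 for Stat5a and 0.023 for Csf2ra. That median ran from -0.075 without ox40l-/- replicate 3 to 0.096 without ox40l+/+ replicate 3.

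Markers of other skin cells moved across the same arrays. Macrophage and monocyte markers, which share Itgax-bearing cells, had mean deviations of -0.19 to 0.25 in ox40l-/- and 0.29, 0.29 and -0.41 in ox40l+/+ skin, with 3 of 11 higher, 8 lower and 0 past the adjusted threshold. Adgre1, an adhesion receptor of macrophages, differed by -0.23 (SE 0.18), and C1qa, a complement chain, by -0.29 (SE 0.23), or 0.0087 without ox40l+/+ replicate 1. NK cell markers deviated by 0.045 to 0.31 in ox40l-/- and by -0.73, -0.14 and 0.27 in ox40l+/+ skin, and B cell markers by -0.10 to 0.23 and by -0.58, -0.097 and 0.33. Like Cd207, both were lowest on ox40l+/+ replicate 1. T cell markers deviated by 0.0033 to 0.14 in ox40l-/- and by -0.21, -0.091 and 0.11 in ox40l+/+ skin. Cd3d, a chain of the T cell receptor complex, was at 3.15 to 3.64 in ox40l-/- and 2.66 to 3.01 in ox40l+/+ skin, a difference of 0.58 (SE 0.18, limma adjusted p = 0.9995). Cd3g differed by 0.22 (SE 0.15). In Cd3d and Cd3g, 2 of the 6 measured T cell markers, the genotypes did not overlap, beside 1.91% of all genes. Cd4 differed by -0.24 (SE 0.18). Cd8a differed by 0.14 (SE 0.19), or 0.0015 without ox40l+/+ replicate 1. Of the measured T cell markers 4 were higher and 2 lower in ox40l-/- skin, with a median of 0.091, and of the NK cell markers 5 of 5 were higher, with 0 past the adjusted threshold in either list. Without ox40l+/+ replicate 1 the T cell median was -0.032. The NK cell median was 0.24 with all arrays and 0.23 without that replicate, where Prf1 turned from 0.086 to -0.11. Endothelial markers, of interest beside Zbtb46, deviated by -0.17 to 0.23 in ox40l-/- and by -0.082, 0.022 and -0.29 in ox40l+/+ skin, where Zbtb46 itself was highest on the array on which they were lowest. Skeletal muscle markers deviated by 0.098 to 0.70 in ox40l-/- and by -0.26, 0.36 and -1.50 in ox40l+/+ skin. Of these markers 6 of 6 were higher in ox40l-/- skin, with 0 past the adjusted threshold. Their median difference was 0.77, and 0.27 without ox40l+/+ replicate 3. The part of these cell types in the values of the 10 genes was not tested.

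**Figure D4:**
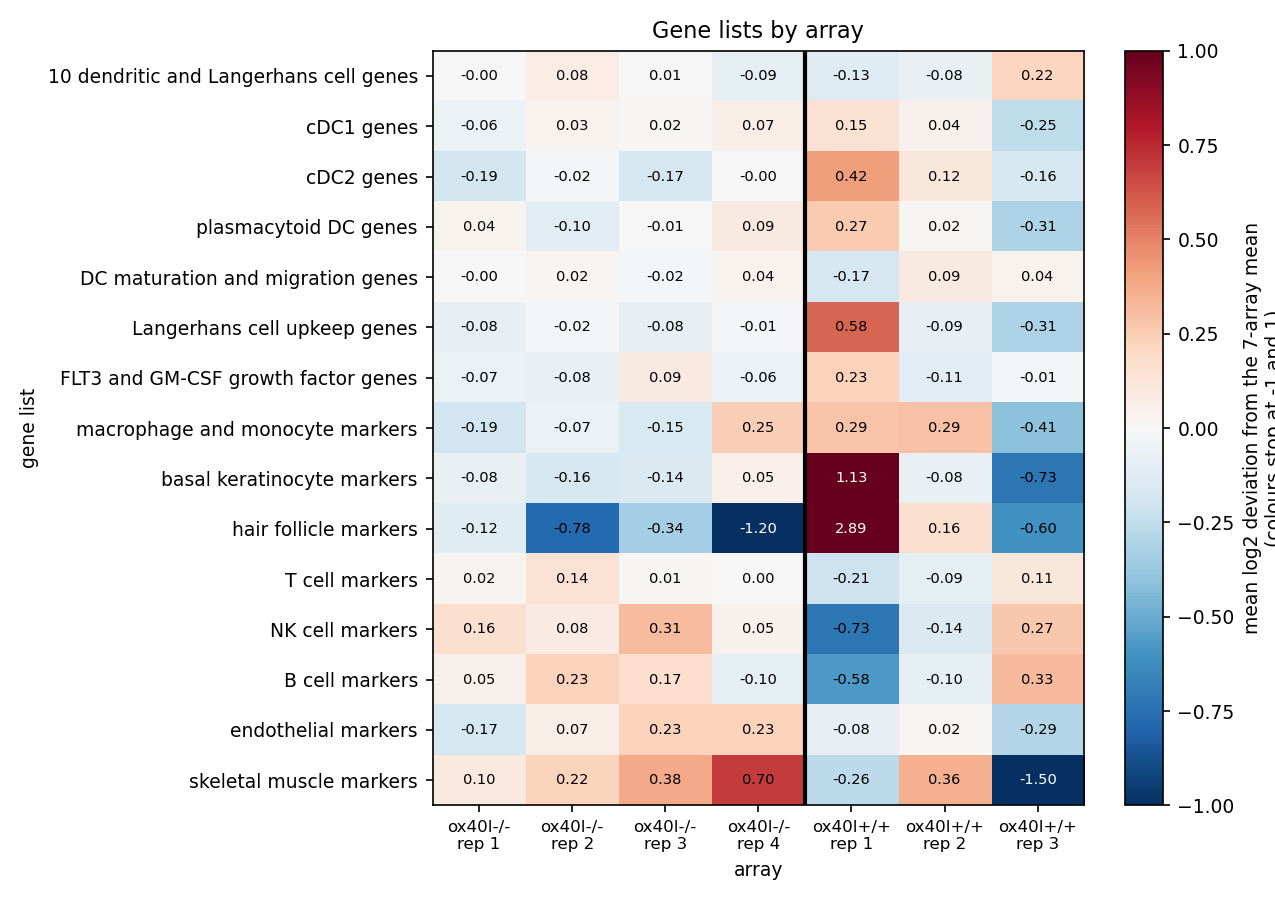
Each cell gives, for 1 gene list (rows) on 1 array (columns, ox40l-/- left and ox40l+/+ right of the line), the mean log2 deviation of its genes from their 7-array means; colours stop at -1 and 1. The 10 dendritic and Langerhans cell genes stay between -0.13 and 0.22, while hair follicle markers reach 2.89 on ox40l+/+ replicate 1 and skeletal muscle markers -1.50 on ox40l+/+ replicate 3.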

How the data were processed

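The deposited values are log2 expression values made by the authors with RMA, per the submitters' processing notes, from Affymetrix whole-transcript arrays, 1 per sample. The RMA version and any genome build are not given in the sources used here, and the values were used as deposited. Of 25206 probe sets, 23185 had 1 gene symbol in the platform annotation, 0 several and 2021 none, and all named ones were matched by Entrez number to RefSeq (GRCm38.p6).

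Genotypes were compared over all 23185 named genes with limma 3.58.1 (lmFit, eBayes, two-sided) in R 4.3.3, with Benjamini-Hochberg adjustment, a threshold of 0.05 and no dim-probe filter. The procedure was tested on simulated data. Python 3.11.15 and matplotlib 3.10.9 were used for tables and figures. The members, lists and alternatives were chosen with earlier results of these data known. Named genes were the 10 members, up to 4 genes with the smallest p per list and the 5 genes most correlated with Cd207; Krt14 and Tnfsf4 serve as checks. Some genes of the lists were not analysed here, and counts are over the measured genes. The p-values weigh each difference against the spread between samples, which limma moderates over all genes. That spread may be partly technical, and the number of arrays limits the precision. Samples were compared unpaired. Deviations of same-numbered arrays from their group means correlated at -0.086, -0.15 and 0.034. Because ox40l+/+ replicates 1 and 3 stood apart, these values cannot tell whether replicate numbers pair the samples.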

Additional observations from a re-analysis of the deposited data

Results flagged for a closer look

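Cd207 was at 4.0913 on ox40l-/- replicate 4, set apart from the other 3 ox40l-/- arrays, which all had exactly 4.0655. The gap is the whole range of that group but measures only 0.026. With 3 tied values any different value on the remaining array would stand out, so the usual chance of about 1 group in 20 does not apply. Of the 7 genes with a range above 0 in the ox40l-/- group, Cd207 was the 1 that stood out in this way, and Epcam, Clec9a and Batf3 could not be tested. The ox40l+/+ group of 3 was not tested.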

How the results depend on the processing

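None of the 10 genes passed the adjusted threshold under the alternatives run, except Fscn1 with array weights (1 of 10), which was also the 1 gene past the unadjusted threshold there and without ox40l+/+ replicates 1 and 3. With single arrays left out, 0 of 10 passed either threshold and the median difference ran from -0.097 to 0.15. With the code number in the sample descriptions as a block it was -0.20; only 1 of these numbers holds both genotypes, so that fit rests on 1 array of each. In the dendritic cell, upkeep and growth factor lists 0 genes passed with quantile normalization or with single arrays left out. These lists were not run with array weights, where 17.4% of all genes passed the adjusted threshold. Nor were they run with the blocks, the covariate or arrays centred on their medians. With single arrays left out, the medians of the type 1, plasmacytoid, upkeep and growth factor lists changed sign.

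Leaving out single arrays, the difference ran from -0.77 to 0.037 for Epcam, -0.0039 to 0.28 for Flt3, -0.27 to 0.26 for Zbtb46, -0.19 to 0.22 for Clec9a, -0.20 to 0.27 for Batf3, -0.35 to 0.062 for Cd209a, -0.19 to 0.39 for Siglech and -0.19 to 0.19 for Fscn1. Those of Cd207 (0.000125 to 0.35) and Itgax (0.018 to 0.17) stayed positive. Quantile normalization turned Batf3 (-0.013) and Fscn1 (0.063). Array weights turned Epcam (0.072), Zbtb46 (0.058), Clec9a (-0.085), Cd209a (0.067) and Fscn1 (0.36). Without ox40l+/+ replicates 1 and 3 the turned values were 0.074 for Epcam, 0.054 for Zbtb46, -0.086 for Clec9a, 0.045 for Cd209a and 0.36 for Fscn1. The code number turned Cd207 (-0.094), Clec9a (-0.30), Batf3 (-0.40) and Siglech (-0.40), and the code suffix Fscn1 (0.032). The SD of array values as a covariate turned Clec9a (-0.039), Batf3 (-0.049) and Fscn1 (0.034). The replicate block also takes ox40l-/- replicate 4, which has no partner, out of the comparison. It turned Zbtb46 (0.013, the same as without that array alone), changed no call among the 10 genes, and gave 251 genes at an unadjusted p under 0.05, against 307 without that array and 436 with all arrays and no block. Leaving out the dimmer 50% of genes removed Itgax and Flt3. Causes were not tested.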
